A study of Mus musculus with 26 samples.

Results

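Paneth cell products were followed here across all 3 kinds of sample of a study of the centrosomal gene Fgfr1op. They were chosen by name: Lyz1, Ang4, Itln1, Pla2g2a, Defa17, Defa22, Defa24 and Mmp7 in the mouse, which are 8 of the 40481 genes of the mouse tables, and LYZ, ITLN1, PLA2G2A, DEFA5, DEFA6 and MMP7 in the human line Caco-2, which are 6 of 55093 genes. All 14 were found in the tables. Paneth cells are secretory cells at the base of small intestinal crypts, lodged between the stem cells. They release granules of antimicrobial proteins into the crypt lumen and supply the neighbouring stem cells with signals such as Wnt3 and Egf. Their maturation depends on Wnt signalling, and their products and autophagy have long been studied in Crohn's disease.

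RNA was sequenced from 26 samples. Small intestinal spheroids, which are hollow cultures of epithelium embedded in Matrigel, were labelled Fgfr1op KO (4 samples) or wt (4 samples). All were taken at day 3 after a treatment with 250 nM hydroxytamoxifen that both genotypes received. Crypt-enriched cells of the small intestine came from Fgfr1op KO (6 samples) and wt (6 samples) mice, 3 of each genotype at day 6 and 3 at day 9 after tamoxifen, and were released with EDTA. Caco-2, an established human colorectal adenocarcinoma line that differentiates towards enterocytes, carried a doxycycline-inducible hairpin against Fgfr1op (shFgfr1op, 3 samples) or a non-targeting hairpin (scramble, 3 samples), all at day 3 after doxycycline and all of 1 hairpin each. The labels name neither the recombinase driver nor the age or strain of the mice. They do not call the Caco-2 samples separate cultures, so the spread behind the p-values of that line may be technical. The crypt libraries are numbered 1 to 6 within each genotype, without the day, so the 2 days could not be separated and the genotypes were compared over both. Which 3 KO libraries are those of day 9 is therefore not known, and a split within the KO libraries cannot be told apart from one between days. Each crypt column also holds a second number, which no label explains. A lower run of it belongs to KO libraries 1 to 3 and WT libraries 1 and 2. A higher run belongs to KO libraries 4 to 6 and WT libraries 3 to 6. A split of KO libraries 1 to 3 from 4 to 6 cannot be told apart from one between these runs either.

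The libraries held 44152608 to 67630241 counts in spheroids, 48068740 to 103352863 in crypts and 37281821 to 50965004 in Caco-2 cells. The unit of a level is CPM, a count scaled to the library total after TMM correction. The targeted gene was lower in the libraries labelled KO. Fgfr1op averaged 17.4 ± 1.98 CPM in KO and 23.2 ± 1.12 CPM in WT spheroids (SD, n = 4 each; exact two-sided permutation p = 0.0286, the smallest this design allows), with an edgeR adjusted p of 0.117. It averaged 21.0 ± 5.21 CPM in KO and 32.9 ± 6.26 CPM in WT crypts (SD, n = 6 each; exact two-sided permutation p = 0.00649), with an edgeR adjusted p of 0.0261. That call was lost without WT library 2 (adjusted p = 0.0528) or WT library 6 (adjusted p = 0.0543). Fgfr1op stood at 11.7, 24.2, 18.7, 25.8, 24.1 and 21.8 CPM in crypt KO libraries 1 to 6. It stood at 25.2, 39.0, 25.6, 38.6, 32.5 and 36.6 CPM in crypt WT libraries 1 to 6. KO library 4 was above WT libraries 1 and 3, and the lowest values were those of KO libraries 1 and 3. In Caco-2 cells FGFR1OP averaged 6.82 ± 0.414 CPM with shFgfr1op and 15.7 ± 0.208 CPM with scramble (SD, n = 3 each; exact two-sided permutation p = 0.1, the smallest this design allows), with an edgeR adjusted p of 1.65e-14. Before any result on the crypts, 3 libraries have to be set apart: on the first principal component, which held 80.3% of the variance, KO libraries 4, 5 and 6 lay at 63.0, 75.7 and 66.1, and the other 9 crypt libraries lay between -40.2 and 1.07. Crypt results are therefore given with these 3 libraries, without them, and library by library.

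The promoters of the members were searched for 2 short motifs. RefSeq windows on GRCm38.p6, from 250 bases before to 50 bases after the start, were at hand for 5 of the 8 mouse members (Lyz1, Ang4, Itln1, Defa22 and Mmp7). Each was searched on both strands for ATCAAAG, a core of the site bound by the TCF/LEF factors that carry Wnt signals to DNA, and for TATAAA, the TATA box. The 2 members with a TCF/LEF core are shown, with that core in capitals: Defa22 (chr8:21162027-21162326, plus strand) and Mmp7 (chr9:7691840-7692139, plus strand).
Defa22: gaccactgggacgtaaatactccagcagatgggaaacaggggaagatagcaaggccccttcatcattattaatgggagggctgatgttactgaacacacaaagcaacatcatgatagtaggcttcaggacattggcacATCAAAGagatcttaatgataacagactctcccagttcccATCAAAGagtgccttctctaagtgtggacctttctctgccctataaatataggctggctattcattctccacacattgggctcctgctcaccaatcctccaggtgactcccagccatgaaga
Mmp7: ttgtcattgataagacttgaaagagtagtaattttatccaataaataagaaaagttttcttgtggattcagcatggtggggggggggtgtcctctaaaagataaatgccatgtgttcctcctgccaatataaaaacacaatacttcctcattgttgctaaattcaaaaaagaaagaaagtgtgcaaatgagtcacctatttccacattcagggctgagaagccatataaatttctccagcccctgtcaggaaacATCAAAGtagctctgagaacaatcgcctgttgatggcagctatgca
The Defa22 window held the core at positions -112 and -72 from the start and a TATA box at -31. The Mmp7 window held the core at +5 and TATA boxes at -123 and -26. The windows of Lyz1, Ang4 and Itln1 held neither string, so neither was common to the 5 windows. Among all 32851 windows of the table, 3.73% held ATCAAAG on either strand, 0.1% held it at least 2 times, and 13.6% held TATAAA. The 2 motifs did not overlap. A match is a string of letters, not evidence of binding.

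In WT crypts the members spanned a wide range of levels. Per kilobase of exon, the median level was 56526 CPM for Defa24 (range 39589 to 102232), 8928 for Lyz1 (5062 to 13203), 7377 for Itln1 (5220 to 14208) and 5890 for Defa22 (4171 to 11199). It was 2672 CPM per kilobase for Defa17 (1892 to 4722), 1076 for Ang4 (704 to 2168), 161 for Mmp7 (111 to 270) and 115 for Pla2g2a (74.0 to 152). Defa24 stood above every other member in all 6 WT libraries, while Lyz1, Itln1 and Defa22 overlapped one another. Defa17 overlapped Defa22 above it and Ang4 below it, and Mmp7 and Pla2g2a overlapped at the low end, well under Ang4. Together the 8 members took 0.843% to 5.03% of all counts in KO crypts and 3.03% to 8.40% in WT crypts.  In bulk samples, fewer Paneth cells and less RNA per Paneth cell cannot be told apart.

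All 8 members had lower mean levels in KO than in WT crypts, and none of them passed the test. In edgeR's quasi-likelihood test with Benjamini-Hochberg adjustment over 16413 genes, 0 of 8 members were called at an adjusted p below 0.05, and 24.5% of all genes were. An unadjusted p below 0.05 was found for 3 of 8 members and for 38.1% of all genes. DESeq2 called 1 of 8 members and 24.1% of all genes, and limma voom with sample quality weights called 8 of 8 members and 43.9% of all genes. The median log2 fold change of the members was -0.91, against 0.05 over all genes tested. The groups overlapped for each of the 8 members, as they did for all but 10.6% of the genes tested. The pattern within the KO group was uneven: KO libraries 4, 5 and 6 were below all 9 other libraries for 8 of 8 members, which held for 14.8% of the genes tested, while KO libraries 1, 2 and 3 lay within or close to the WT range.

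**Figure D1:**
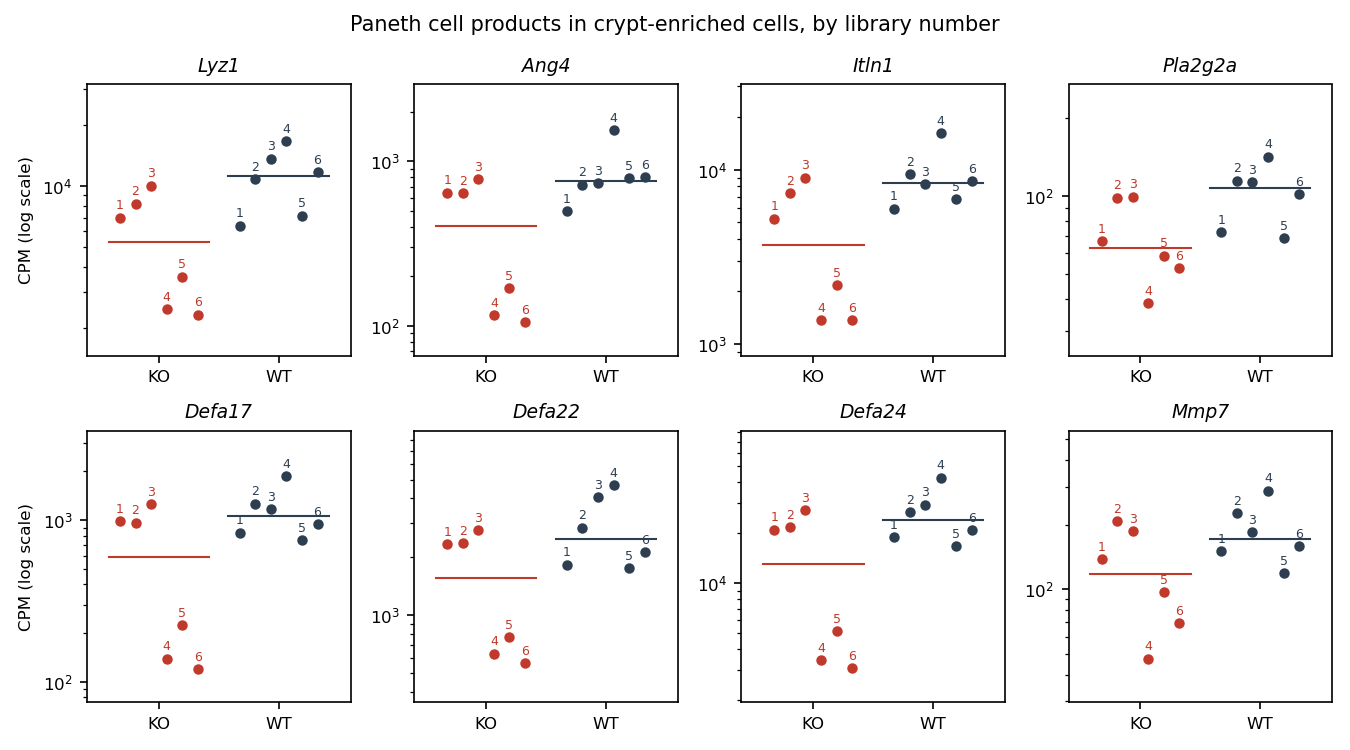
Level of each Paneth cell product in every crypt library (CPM, log axis), KO left and WT right, with library numbers beside the points and the group median as a line. KO libraries 4, 5 and 6 lie below all 9 other libraries in each panel, and KO libraries 1, 2 and 3 lie among or close to the WT libraries.

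Among the enzymes and lectins of the granule, Lyz1 encodes lysozyme, which cuts the peptidoglycan of bacterial walls. Lyz1 stood at 6995, 8180, 10050, 2477, 3582 and 2329 CPM in KO libraries 1 to 6, against 6393, 10805, 13661, 16675, 7151 and 11747 CPM in WT libraries 1 to 6. Its 3 lowest values were those of KO libraries 4, 5 and 6, at 22%, 31.8% and 20.7% of the WT median, and the other KO values lay between the lowest and the median WT library. Over the 6 libraries of each genotype the log2 fold change was -0.98 ± 0.38 (SE; edgeR adjusted p = 0.0747), with the smallest p among the members. DESeq2 called Lyz1 at an adjusted p of 0.0295.

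Ang4 encodes an angiogenin-family ribonuclease with microbicidal activity. Ang4 stood at 645, 642, 781, 116, 170 and 105 CPM in KO libraries, against 499, 719, 736, 1537, 790 and 800 CPM in WT libraries. The KO group was split, with no value between 170 and 642 CPM, and its 3 higher values overlapped WT. The log2 fold change was -1.05 ± 0.52 (SE; edgeR adjusted p = 0.160). Itln1 encodes intelectin, a lectin that binds sugars of microbial surfaces. Itln1 stood at 5226, 7315, 8968, 1360, 2161 and 1369 CPM in KO libraries, against 5956, 9413, 8263, 16211, 6732 and 8570 CPM in WT libraries. Here 4 of 6 KO libraries were below every WT library, and the log2 fold change was -1.06 ± 0.48 (SE; edgeR adjusted p = 0.124). WT library 4 was the highest WT library for each of Ang4 and Itln1 and lay far from the other 5.

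Pla2g2a encodes a secreted phospholipase A2 that attacks bacterial membranes, and several laboratory strains carry a broken copy of it. The annotation lists it as a polymorphic pseudogene. Pla2g2a stood at 66.7, 98.2, 99.1, 38.6, 58.8 and 52.5 CPM in KO libraries, against 72.3, 114, 113, 141, 68.7 and 101 CPM in WT libraries. KO libraries 4, 5 and 6 kept 36.0%, 54.9% and 49.1% of the WT median, and KO library 1 was also just below the lowest WT library. The log2 fold change was the smallest of the 8, at -0.56 ± 0.24 (SE; edgeR adjusted p = 0.104).

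Alpha-defensins, called cryptdins in the mouse, are small cationic peptides that disrupt bacterial membranes. Defa24 was the most abundant member. It stood at 20860, 21582, 27285, 3443, 5141 and 3074 CPM in KO libraries, against 18835, 26637, 29395, 42835, 16588 and 20732 CPM in WT libraries. KO libraries 1, 2 and 3 all lay inside the WT range, and KO libraries 4, 5 and 6 kept 14.5%, 21.7% and 13.0% of the WT median. The log2 fold change was -0.93 ± 0.54 (SE; edgeR adjusted p = 0.230).

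Defa17 stood at 988, 965, 1256, 139, 225 and 119 CPM in KO libraries, against 835, 1262, 1175, 1874, 751 and 947 CPM in WT libraries. It had the lowest relative level of the 8 members in KO libraries 4, 5 and 6, at 13.1%, 21.2% and 11.2% of the WT median. The log2 fold change was -0.89 ± 0.57 (SE; edgeR adjusted p = 0.273). Defa22, whose promoter is printed above, stood at 2322, 2342, 2732, 632, 765 and 565 CPM in KO libraries, against 1820, 2827, 4049, 4692, 1748 and 2108 CPM in WT libraries. Its 3 lower KO values were at 25.6%, 31.0% and 22.9% of the WT median, a smaller drop than that of the other alpha-defensin members, and the log2 fold change was -0.88 ± 0.44 (SE; edgeR adjusted p = 0.164).

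Mmp7 encodes matrilysin, the metalloprotease that in the mouse cuts pro-alpha-defensins into their active form. Mmp7 stood at 138, 207, 186, 47.5, 96.6 and 69.6 CPM in KO libraries, against 150, 226, 184, 288, 118 and 159 CPM in WT libraries. In KO libraries 4, 5 and 6 it was at 27.7%, 56.3% and 40.5% of the WT median, higher in each of the 3 than any alpha-defensin member in the same library. The log2 fold change was -0.59 ± 0.34 (SE; edgeR adjusted p = 0.211). Over the 8 members, the median percent of the WT median was 82.5, 91.1, 108, 19.1, 28.3 and 18.5 in KO libraries 1 to 6.

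The members moved together from library to library. Over the 28 pairs, Pearson's r of log2 CPM across the 12 crypt libraries ran from 0.869 to 0.998 with a median of 0.960 as a description. Across the 9 libraries other than KO libraries 4, 5 and 6, r ran from 0.595 to 0.984 with a median of 0.862. Of the 9905 genes considered, 1.09% had an r above 0.9 with the mean of the members. The 10 most alike, with r from 0.991 to 0.996, were Gm14851, Defa-ps7, AY761184, Defa3, Defa36, Defa37, Defa23, Defa29, Defa31 and Defa-ps1, and 8 of the 10 are named as alpha-defensin genes or pseudogenes. The alpha-defensins Defa17, Defa22 and Defa24 enter that mean, so a high rank of genes very like them in sequence is partly built in. This ranking was made over all 12 crypt libraries, with KO libraries 4, 5 and 6 included.

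The alpha-defensins form a block of near-identical genes, and this limits what a count of any single gene means. In the GENCODE M21 annotation 22 of them lie on chromosome 8 between 21025545 and 21735471, a span of 709.9 kb, and no pair overlaps. The transcript of Defa17 is 99.7% identical to that of Defa3, Defa22 is 99.5% identical to Defa21, and Defa24 is 98.2% identical to Defa30. Defa36 and Defa37 have identical transcripts over 403 bases, and the count of Defa37 was 100% to 100.3% of that of Defa36 in the 12 crypt libraries, a difference of 0 to 85 reads that was never negative. No source used here says what was done with reads that match several genes, so the single-gene counts of alpha-defensins are uncertain, and so is a sum over the family, which changes if such reads were counted for each gene or dropped.

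The other genes and pseudogenes whose symbols begin with Defa followed the same course. Of 36, 27 were tested in crypts; all 27 had negative log2 fold changes, from -1.16 to -0.06 with a median of -0.93, and 0 were called by edgeR. In KO libraries 4, 5 and 6, 26 of the 27 were below all 9 other libraries, against 14.8% of the genes tested. Among the 19 that are not pseudogenes, the median level was 17.1%, 23.2% and 17.6% of the WT median in these 3 libraries, and 89.9%, 94.8% and 105% in KO libraries 1, 2 and 3. The smallest values belonged to Defa25 (5.22% in KO library 4, from 2 counts) and Defa28 (6.03% in KO library 6, from 12 counts). All 22 alpha-defensin genes together took 0.641% to 4.40% of counts in KO crypts and 2.54% to 7.37% in WT crypts.

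**Figure D2:**
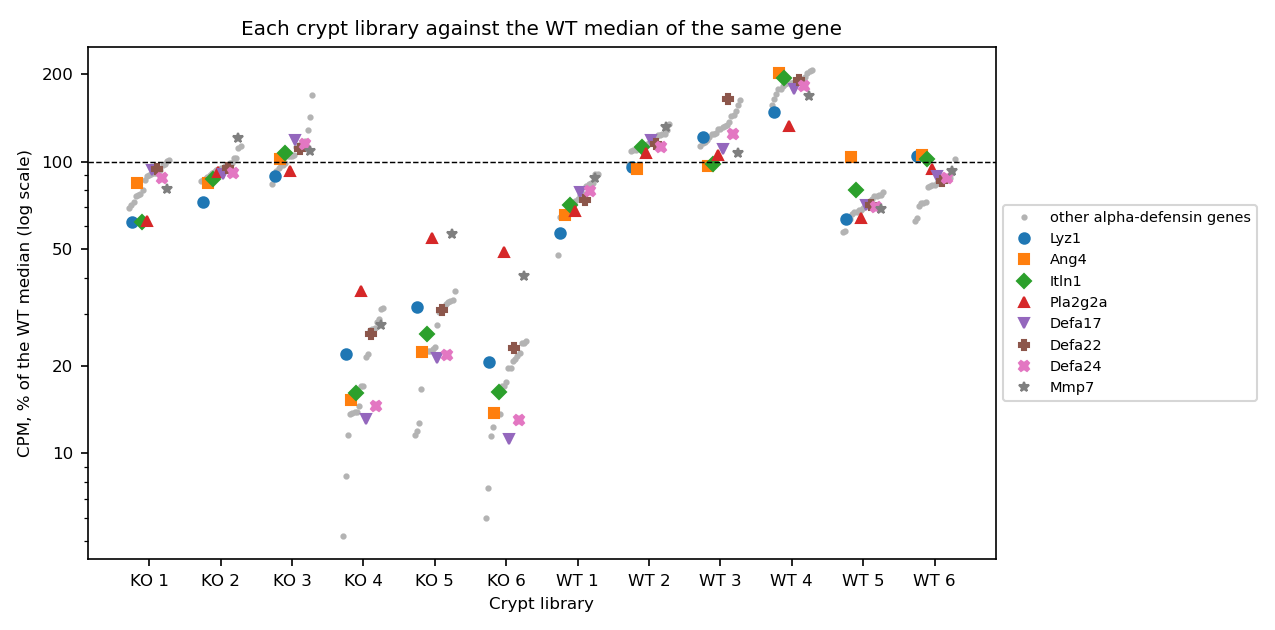
Level of each member (coloured) and of the 19 other alpha-defensin genes (grey) in every crypt library as a percent of the WT median of that gene (log axis; the dashed line is 100%), KO libraries left and WT libraries right. Members lie between 11.2% and 56.3% in KO libraries 4, 5 and 6, and between 62.0% and 121% in KO libraries 1, 2 and 3.

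The comparison depends on how the KO libraries are weighted. Without KO libraries 4, 5 and 6, 0 of 8 members were called (5.46% of 16924 genes were), all 8 log2 fold changes remained negative, and their median was -0.21. That setting compares KO libraries of the lower run of column numbers with WT libraries of both runs. Without KO library 3, edgeR called 3 of 8 members (Lyz1, Itln1 and Pla2g2a) and 27.4% of 16811 genes.

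Some other Paneth products passed the test. Of 16 tested, 4 fell in KO crypts and 0 rose, against 10.5% and 14% of all genes. The summed level of this list overlapped, at 15182 to 36027 CPM in KO and 20417 to 56027 CPM in WT crypts. KO libraries 4, 5 and 6 were below all 9 other libraries for 12 of the 16, against 14.8% of the genes tested. Reg1 and Reg3a encode secreted C-type lectins of the regenerating family. Reg3b and Reg3g of that family were not called (log2 fold changes -0.28 and 0.18, edgeR adjusted p = 0.730 and 0.827). Reg1 stood at 30.1, 25.0, 18.8, 6.62, 7.27 and 10.5 CPM in KO libraries, against 214, 62.3, 111, 81.8, 261 and 166 CPM in WT libraries. Unlike the 8 members, it was below every WT library in all 6 KO libraries, with a log2 fold change of -3.19 ± 0.48 (SE; edgeR adjusted p = 0.00208). Reg3a stood at 32.8, 30.4, 23.4, 8.93, 6.01 and 11.1 CPM in KO libraries, against 145, 52.2, 194, 46.7, 160 and 84.7 CPM in WT libraries, again without overlap, with a log2 fold change of -2.60 ± 0.51 (SE; edgeR adjusted p = 0.00531). Without KO libraries 4, 5 and 6 the changes were -2.60 for Reg1 (adjusted p = 0.0148) and -1.98 for Reg3a (adjusted p = 0.0434).

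Mptx1, a mucosal pentraxin, fell by 1.57 ± 0.42 (SE) on the log2 scale (edgeR adjusted p = 0.0176), and Rnase4, a secreted ribonuclease, fell by 0.97 ± 0.24 (SE; edgeR adjusted p = 0.0123). The groups did not overlap for either gene, but neither call held without KO libraries 4, 5 and 6 (adjusted p = 0.0538 for Mptx1 and 0.0776 for Rnase4). Mptx2, a pentraxin of Paneth cells, had 943, 980, 1146, 208, 420 and 203 CPM in KO libraries, against 1013, 1666, 1430, 2502, 1120 and 1311 CPM in WT libraries, and was not called.

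Among signals of the stem cell niche, 1 of 10 tested rose and 2 fell in KO crypts, where 14% of all genes rose and 10.5% fell. Tgfa, a ligand of the EGF receptor, rose by 1.23 ± 0.29 on the log2 scale (SE; edgeR adjusted p = 0.00951). Its levels were 16.1, 10.5, 9.50, 28.3, 29.5 and 26.7 CPM in KO libraries, against 8.98, 5.79, 9.88, 6.93, 10.3 and 9.57 CPM in WT libraries. Egf, another ligand of that receptor, fell by 1.34 ± 0.37 (SE; edgeR adjusted p = 0.0196), with low levels of 0.402 to 1.05 CPM in KO and 0.636 to 3.85 CPM in WT crypts. Kit, a receptor tyrosine kinase, fell by 1.54 ± 0.43 (SE; edgeR adjusted p = 0.0225), with 4.41 to 22.3 CPM in KO and 10.9 to 39.8 CPM in WT crypts. None of the 3 was called without KO libraries 4, 5 and 6. Wnt3, the Paneth Wnt ligand, averaged 7.28 ± 4.07 CPM in KO and 11.4 ± 4.33 CPM in WT crypts (SD, n = 6 each) and was not called.

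Of 22 genes listed as regulators of Paneth and secretory fate, 5 rose and 1 fell in KO crypts, beside the 14% and 10.5% of all genes that did so. The 1 that fell was Tcf4 (log2 fold change -0.51, edgeR adjusted p = 0.0208), and it was not called without KO libraries 4, 5 and 6. Tcf7l2 is a separate gene of the list and was not called (edgeR adjusted p = 0.522). Foxa1, a pioneer transcription factor, rose by 1.59 ± 0.29 on the log2 scale (SE; edgeR adjusted p = 0.00315). It stood at 7.72, 3.34, 3.46, 7.40, 9.85 and 7.84 CPM in KO libraries, against 2.78, 1.65, 1.49, 2.54, 1.95 and 2.75 CPM in WT libraries, with no overlap, and it was also called without KO libraries 4, 5 and 6 (1.15, adjusted p = 0.0395). Spdef, a factor of goblet and Paneth maturation, rose by 1.13 ± 0.36 (SE; edgeR adjusted p = 0.0360), with 9.03 to 33.5 CPM in KO and 3.39 to 12.1 CPM in WT crypts. The Eph receptors that position Paneth cells in the crypt also rose, Ephb2 by 0.81 (edgeR adjusted p = 0.0108) and Ephb3 by 0.79 (edgeR adjusted p = 0.0437). Spdef, Ephb2 and Ephb3 were not called without KO libraries 4, 5 and 6. Over 18 alternatives, that one included, the call was lost in 13 for Ephb3 (adjusted p up to 0.179), in 9 for Spdef (up to 0.472) and in 1 for Ephb2 (0.0769). Among 11 genes of granule formation and export, Rab27a, a small GTPase that docks secretory vesicles, fell by 0.79 ± 0.16 (SE; edgeR adjusted p = 0.00460), with 10.9 to 19.9 CPM in KO and 22.4 to 30.3 CPM in WT crypts, and was not called without KO libraries 4, 5 and 6 (adjusted p = 0.0738).

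Several lists of markers of other cell types also differed, not all in the same libraries. The summed level of 10 enterocyte markers was 31207, 16139, 27065, 6914, 3288 and 5896 CPM in KO libraries 1 to 6, against 14524 to 36162 CPM in WT libraries, and 2 of the 10 fell (Sis and Slc5a1). The sum of 8 stem cell markers was 422 to 1316 CPM in KO libraries, with KO libraries 4, 5 and 6 lowest, against 1121 to 2513 CPM in WT libraries, and 0 of the 8 were called by edgeR. Olfm4, which marks crypt base stem cells, had 428, 913, 808, 22.4, 17.0 and 8.36 CPM in KO libraries, against 817 to 1997 CPM in WT libraries. Its low level in KO libraries 4, 5 and 6 weighed heavily in that sum. Of the 8 stem cell markers, 5 had negative log2 fold changes, with a median of -0.34 over the list. Axin2, Rnf43 and Prom1 had positive ones (0.03, 0.34 and 0.06). The sum of 7 enteroendocrine markers was 146 to 449 CPM in KO crypts, with KO libraries 4, 5 and 6 again lowest, and 255 to 517 CPM in WT crypts. The sum of 9 immune markers was 376 to 2128 CPM in KO crypts, lowest in the same 3 libraries, and 1971 to 5263 CPM in WT crypts, with 2 markers that fell (Cd74 and Itgam) and 1 that rose (Cd68). Of the 9 immune markers, 1 was itself below all 9 other libraries in KO libraries 4, 5 and 6, against 14.8% of the genes tested. Negative log2 fold changes were found for 4 of the 9, with a median of 0.0046 over the list.

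The sums of other lists did not follow that split. The sum of 9 goblet markers was 7889, 6255, 6787, 6254, 7006 and 5456 CPM in KO libraries 1 to 6, against 7218 to 11580 CPM in WT libraries, and 1 of the 9 rose (Spdef). The sum of 5 tuft markers was 16.7, 25.8, 23.8, 32.5, 50.5 and 38.4 CPM in KO libraries, against 25.1 to 47.6 CPM in WT libraries. Of the 4 tuft markers tested, Dclk1 and Pou2f3 fell, by 1.79 and 1.84 on the log2 scale (edgeR adjusted p = 0.0266 and 0.0189), although the sum was highest in KO libraries 4, 5 and 6 among the KO libraries. Taken singly, 3 of these 4 tuft markers were below all 9 other libraries in KO libraries 4, 5 and 6. The same held for 2 of the 9 goblet markers, 0 of the 6 stromal markers and 14.8% of all genes tested. Among the lists above, it held for 8 of 10 enterocyte, 5 of 8 stem cell and 4 of 7 enteroendocrine markers. The sum of 6 stromal markers was 6.04, 8.61, 4.89, 10.8, 55.8 and 18.2 CPM in KO libraries, against 4.42 to 41.5 CPM in WT libraries. No marker of these lists was at 0 in every crypt library. Their part in the result on the members was not tested.

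Spheroids held very little Paneth RNA, and no member passed the test there. The members took 0.00621% to 0.0167% of counts in KO and 0.00761% to 0.0108% in WT spheroids. The order of the members was not that of the crypts: per kilobase, Mmp7 was highest in WT spheroids (median 40.6 CPM, range 33.4 to 60.7), above Defa24 (16.8, range 12 to 32.9), Itln1 (15.3, range 9.64 to 23.8) and Lyz1 (7.62, range 3.69 to 13.5). Set side by side with WT crypts, which were prepared and tabulated separately, the median of Mmp7 was 172 CPM in crypts and 43.3 CPM in spheroids, while that of Lyz1 was 11276 CPM in crypts and 9.62 CPM in spheroids, and that of Defa24 was 23684 CPM in crypts and 7.03 CPM in spheroids. The crypt level was thus 3.96 times the spheroid level for Mmp7, 72.4 times for Pla2g2a, 374 times for Ang4, 483 times for Itln1, 1172 times for Lyz1, 1692 times for Defa17 and 3368 times for Defa24.

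In KO against WT spheroids, edgeR tested 7 of the 8 members and called 0, while 0.232% of 15915 genes were called. An unadjusted p below 0.05 was found for 1 of the 7 members and for 14.6% of all genes. DESeq2 also called 0 members, and 566 of the 27088 genes it fitted. Of the 7, 5 had positive log2 fold changes and the median was 0.61, against -0.0018 over all genes. These sizes leaned on KO library 3: without it the median was 0.29, with Lyz1 at 0.13, Defa17 at 0.51 and Defa24 at 0.60. Without WT library 2 the median was 0.97, and without WT library 1 Pla2g2a was at 0.25. The groups overlapped for all 7, and 8.56% of the genes tested had groups that did not overlap. Lyz1 stood at 5.32, 13.1, 28.7 and 15.2 CPM in KO libraries, against 8.24, 17.1, 11.0 and 4.65 CPM in WT libraries (log2 fold change 0.61 ± 0.54, SE; edgeR adjusted p = 0.644). KO library 3 was the highest of the 8 libraries, and the other 3 KO libraries lay within the WT range.

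Ang4 stood at 1.84, 2.85, 4.71 and 3.82 CPM in KO libraries, against 2.44, 2.42, 1.66 and 0.968 CPM in WT libraries. It had the smallest p of the members, with 3 of 4 KO libraries above every WT library (log2 fold change 0.83 ± 0.34, SE; edgeR adjusted p = 0.306). Itln1 stood at 10.0, 15.4, 28.9 and 12.2 CPM in KO libraries, against 22.7, 27.2, 12.1 and 11.0 CPM in WT libraries, 2 fully mixed groups (log2 fold change -0.13 ± 0.41, SE; edgeR adjusted p = 0.909). Pla2g2a stood at 1.37, 0.965, 3.17 and 3.41 CPM in KO libraries, against 0.599, 1.05, 1.9 and 2.63 CPM in WT libraries (log2 fold change 0.51 ± 0.52, SE; edgeR adjusted p = 0.683).

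Among the alpha-defensins, Defa24 stood at 4.50, 14.9, 35.0 and 18.0 CPM in KO libraries, against 7.02, 13.8, 7.04 and 5.02 CPM in WT libraries. KO libraries 2, 3 and 4 were above every WT library and KO library 1 was below them all (log2 fold change 1.14 ± 0.58, SE; edgeR adjusted p = 0.416). Defa17 stood at 0.576, 1.44, 4.10 and 1.54 CPM in KO libraries, against 0.553, 1.54, 0.701 and 0.522 CPM in WT libraries, with KO library 3 alone clearly above WT (log2 fold change 1.21 ± 0.58, SE; edgeR adjusted p = 0.382). Defa22 was too low to be tested, with 4, 6, 52 and 14 counts in KO libraries, against 2, 20, 2 and 0 counts in WT libraries. Mmp7 stood at 39.3, 26.8, 62.4 and 51.4 CPM in KO libraries, against 35.7, 44.2, 42.5 and 64.8 CPM in WT libraries (log2 fold change -0.06 ± 0.28, SE; edgeR adjusted p = 0.937).

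**Figure D3:**
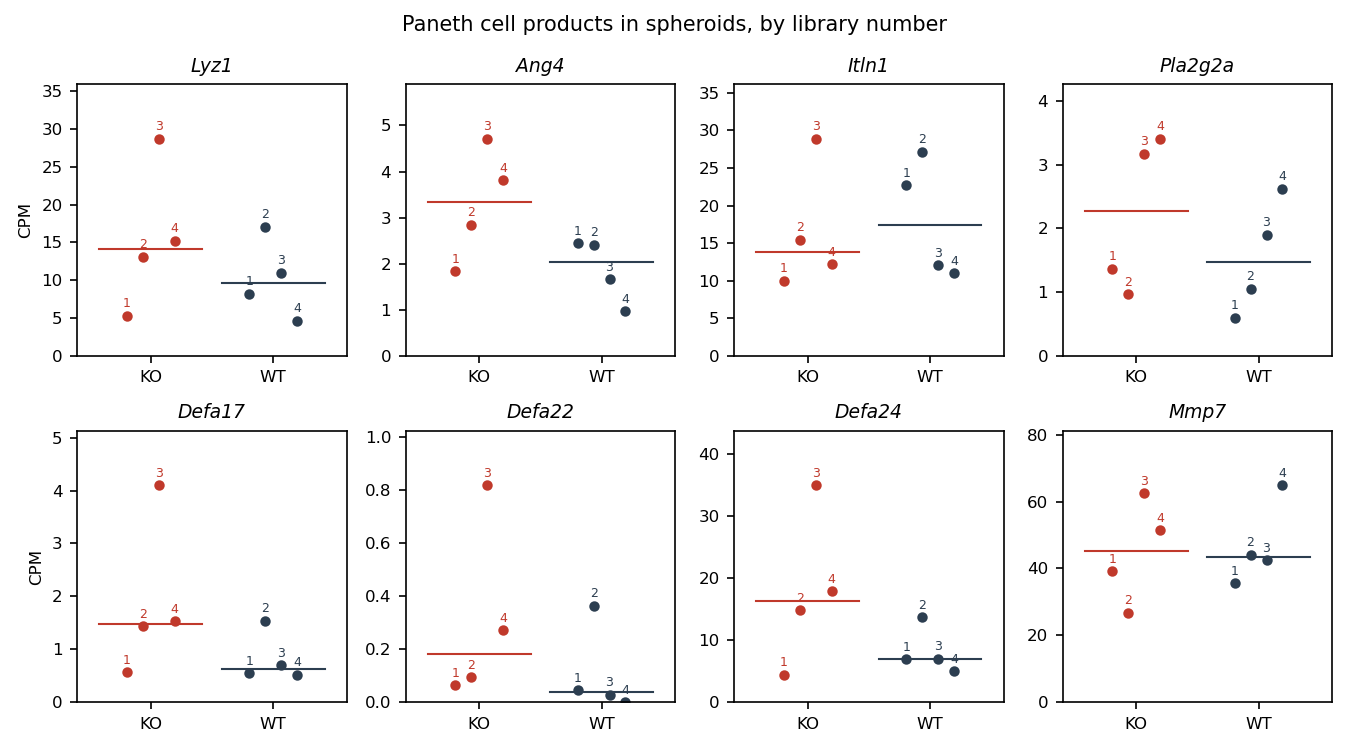
Level of each Paneth cell product in every spheroid library (CPM, linear axis from 0, a separate scale in each panel), KO left and WT right, with library numbers and the group median as a line. KO library 3 is the highest or second highest of the KO libraries in each panel, and KO and WT libraries overlap throughout.

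The members also varied less in step in spheroids. Over 21 pairs Pearson's r of log2 CPM across the 8 libraries ran from -0.267 to 0.974 with a median of 0.572. Pairs among Lyz1, Ang4, Defa17 and Defa24 stayed high, from 0.831 to 0.974. Every pair with Mmp7, Itln1 or Pla2g2a was at 0.795 or below. The genes most like the mean of the members were Tbcc (r = 0.930), Gm5561 (0.904) and Chgb (0.879). Genes were compared from a mean level of 2 on the log2 CPM scale upwards, which no other alpha-defensin reached in spheroids, where the 36 others summed to 0.774 to 8.01 CPM in KO and 0.599 to 3.92 CPM in WT libraries. The marker lists of other cell types held 0 called genes in spheroids. Of the lists of related genes, spheroids had 1 called gene: Sytl2, a synaptotagmin-like partner of Rab27 proteins, rose to 20.8 ± 1.18 CPM in KO, against 11.7 ± 2.47 CPM in WT spheroids (SD, n = 4 each; log2 fold change 0.83, edgeR adjusted p = 0.0458), while 0.189% of all genes rose. That call was lost under 7 of 14 alternatives, with an adjusted p of up to 0.192.

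The difference between the KO effect in crypts and that in spheroids was tested directly, on the joined mouse tables. The crypt effect minus the spheroid effect was negative for all 8 members, from -0.58 for Mmp7 to -2.49 for Defa22, with a median of -1.78. edgeR called 0 of 8 (adjusted p from 0.157 to 0.542), while 2.86% of 18485 genes were called. An unadjusted p below 0.05 was found for 5 of the 8 (Ang4, Defa24, Lyz1, Defa17 and Defa22) and for 20.6% of all genes. Without crypt KO libraries 4, 5 and 6 all 8 differences were again negative and 0 were called, where 110 of 18591 genes were. Their median was then -1.12, from -0.06 for Mmp7 and -0.28 for Itln1 to -1.84 for Defa22 (edgeR adjusted p from 0.255 to 0.977). Without spheroid KO library 3 the median was -1.25. Defa22, at 0 to 52 counts in spheroids, was at -1.33 without that library and at -4.58 without spheroid WT library 2.

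**Figure D4:**
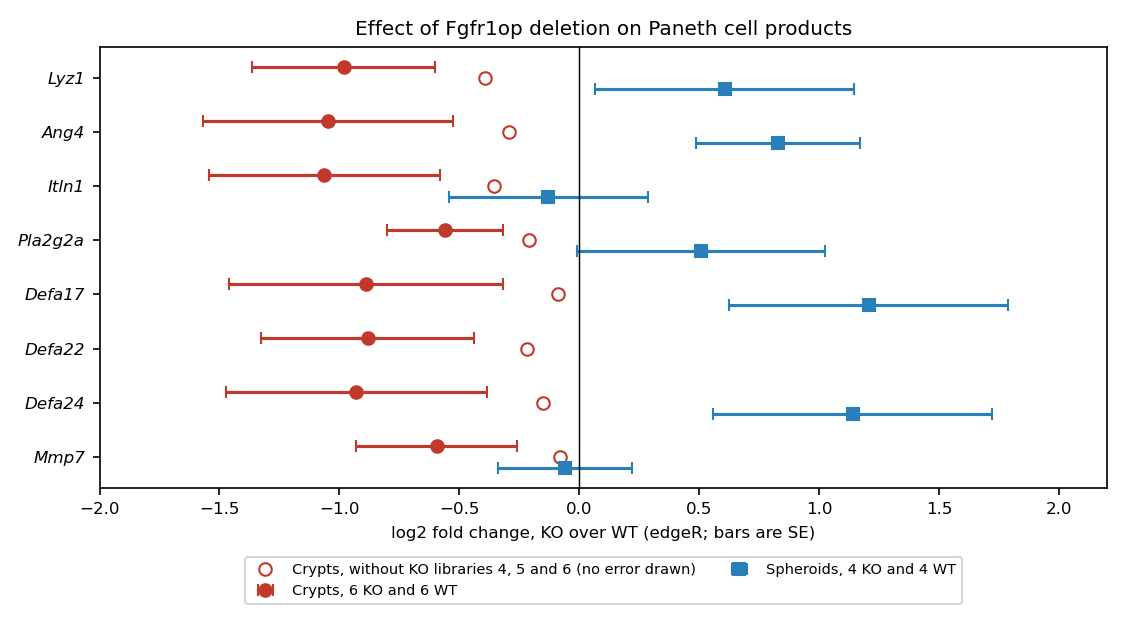
Log2 fold change of KO over WT for each Paneth cell product (edgeR; bars are SE): crypts with all libraries (filled circles), crypts without KO libraries 4, 5 and 6 (open circles) and spheroids (squares; Defa22 was not tested there). All crypt values are negative, from -1.06 to -0.56 with all libraries, and 5 of 7 spheroid values are positive.

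In Caco-2 cells, LYZ was the only member called among the 3 tested. LYZ stood at 17.5, 16.7 and 16.1 CPM with shFgfr1op, against 24.5, 23.5 and 26.8 CPM with scramble. The groups did not overlap, and LYZ fell by 0.57 ± 0.071 on the log2 scale (SE; edgeR adjusted p = 8.07e-09). This call held in all 12 alternatives. edgeR thus called 1 of the 3 members tested, where 31.9% of 18905 genes were called, so a single called member is close to what this comparison gave genes in general.

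ITLN1 stood at 0.656, 1.00 and 0.790 CPM with shFgfr1op, against 1.15, 1.35 and 1.17 CPM with scramble, from 25 to 68 counts a library. The groups did not overlap, as was the case for 42.4% of the genes tested, and the log2 fold change of -0.59 ± 0.30 (SE) was not called (edgeR adjusted p = 0.140). PLA2G2A stood at 11.6, 10.0 and 11.7 CPM with shFgfr1op, against 10.6, 10.3 and 10.9 CPM with scramble, 2 overlapping groups (log2 fold change 0.07 ± 0.095, SE; edgeR adjusted p = 0.618). The defining Paneth products were almost absent from this line. DEFA5, one of the human Paneth defensins, had 0 counts in all 6 libraries, DEFA6, the other, had 0, 0 and 2 counts with shFgfr1op and 0 with scramble, and MMP7 had 0, 4 and 1 counts with shFgfr1op and 2, 0 and 0 with scramble. These 3 were not tested, and Caco-2 cells cannot be taken for Paneth cells by these markers.

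**Figure D5:**
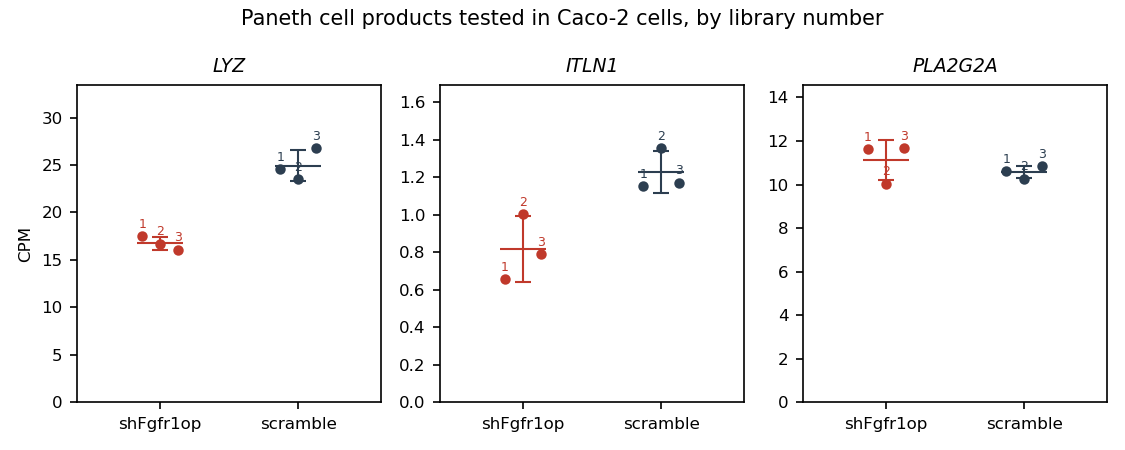
Level of the 3 Paneth cell products tested in Caco-2 cells (CPM, linear axis from 0), shFgfr1op left and scramble right, with library numbers, group mean and SD. For LYZ the shFgfr1op libraries lie between 16.1 and 17.5 CPM and the scramble libraries between 23.5 and 26.8 CPM.

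Other secreted products listed with Paneth cells were also lower in shFgfr1op cells: of 7 tested, 6 fell and 0 rose, against 16.2% and 15.7% of all genes. ZG16, a lectin better known from goblet cells, had 3.67 ± 0.266 CPM with shFgfr1op and 16.2 ± 1.26 CPM with scramble (SD, n = 3 each; log2 fold change -2.14, edgeR adjusted p = 5.27e-21). HABP2, a serine protease, had 22.6 ± 1.62 CPM with shFgfr1op and 67.7 ± 2.12 CPM with scramble (log2 fold change -1.59, edgeR adjusted p = 1.63e-26). ITLN2, the paralogue of ITLN1, had 0.654 ± 0.165 CPM with shFgfr1op and 1.74 ± 0.260 CPM with scramble (log2 fold change -1.42, edgeR adjusted p = 0.000101). The other 3 that fell were NUPR1, RNASE4 and ANG. The call of RNASE4 was lost in 5 of 11 alternatives, with an adjusted p of up to 0.156.

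Of 20 genes listed as regulators of Paneth and secretory fate and tested in Caco-2 cells, 5 rose and 7 fell, beside 15.7% and 16.2% of all genes. TCF4 was among those that rose (log2 fold change 0.77), and TCF7L2 was among those that fell (-0.18). FZD5, the Wnt receptor needed for Paneth maturation in the mouse, had 173 ± 3.89 CPM with shFgfr1op and 256 ± 1.87 CPM with scramble (SD, n = 3 each; edgeR adjusted p = 7.59e-19). CDX2, an intestinal identity factor, had 99.4 ± 6.87 CPM with shFgfr1op and 187 ± 11.4 CPM with scramble (edgeR adjusted p = 2.88e-13). EPHB3 had 23.8 ± 0.821 CPM with shFgfr1op and 16.3 ± 0.542 CPM with scramble (edgeR adjusted p = 2.18e-08). Of 10 granule and export genes, 2 rose and 3 fell. AGR2, a disulfide isomerase of secretory cells, had 86.6 ± 5.37 CPM with shFgfr1op and 152 ± 1.70 CPM with scramble (edgeR adjusted p = 1.84e-21). Of 7 niche signals, 2 rose and 2 fell. Markers of other cell types moved in the same comparison: of 8 enterocyte markers tested 6 fell and 1 rose, with a summed level of 1481 to 1607 CPM with shFgfr1op and 2394 to 2434 CPM with scramble, and of 4 goblet markers tested 3 fell (AGR2, ZG16 and TFF3, the last lost in 7 of 12 alternatives). Stem cell markers went the other way: of 7 tested 5 rose and 1 fell. LGR5, a receptor of stem cells, had 40.7 ± 1.39 CPM with shFgfr1op and 14.5 ± 1.03 CPM with scramble, and SMOC2 had 5.73 ± 0.840 CPM with shFgfr1op and 2.73 ± 0.204 CPM with scramble (edgeR adjusted p = 5.40e-23 and 2.40e-07). Their summed level was 551 to 562 CPM with shFgfr1op and 550 to 564 CPM with scramble. Their part in the change of LYZ was not tested.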

How the data were processed

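The authors deposited 1 table of whole-number read counts per gene each for spheroids, crypts and Caco-2. The tools named are STAR and DESeq2, and the mouse build is mm10, per the submitters' processing notes. Strand and the handling of reads with several matches were not found in any source. Entries that repeated an identifier with the same counts were removed (276 from each mouse table, 116 from the Caco-2 table). The members and gene lists were chosen with earlier results of these data known.

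The fit of a comparison took all genes of its table, with edgeR 4.0.16 in R 4.3.3 (filterByExpr, TMM, robust quasi-likelihood F test, Benjamini-Hochberg), and a gene was called at an adjusted p below 0.05. The SE is the size of the log2 fold change divided by the square root of F. The difference of the crypt and spheroid effects was an interaction contrast on the joined mouse tables. The targeted gene was also compared with an exact permutation test on log2 CPM. Likeness was Pearson's r of log2 CPM with a pseudocount of 0.1, among genes of mean log2 CPM of at least 2. Within groups, the chi-square of pairs over genes, divided by its degrees of freedom, was 26.7 to 97.4 for spheroids, 66.7 to 996.8 for crypts and 3.98 to 9.58 for Caco-2, so no library was a repeat of another. Coordinates are from GENCODE M21 on the assembly of mm10. The script that fits the tables was tested on simulated data.

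Named genes are the members, Fgfr1op, genes of the lists with the smallest p or that were called, and the 10 genes most like the members. Alternatives were RLE size factors, no filter, a filter of 1 CPM, DESeq2 1.42.0, limma 3.58.1 voom with sample quality weights, the replicate number as a block, each library left out, and, added after seeing the data, the crypts without KO libraries 4, 5 and 6. For spheroids and Caco-2, columns were matched to samples by title and hairpin. For crypts they were matched to genotype only. A listed gene that is left unnamed here still enters its list's counts.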

Additional observations from a re-analysis of the deposited data

Results flagged for a closer look

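Within groups of 4 to 10 libraries, 3 of 32 tests found a library far from the rest of its group, and chance gives about 1 in 20. Ang4 was at 1537 CPM in crypt WT library 4, and the other 5 WT libraries were at 499 to 800 CPM. Itln1 was at 16211 CPM in crypt WT library 4, and the other 5 WT libraries were at 5956 to 9413 CPM. Defa22 was at 0.363 CPM in spheroid WT library 2, which is 20 counts, and the other 3 WT libraries held 0 to 2 counts.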

How the results depend on the processing

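The count of members called in crypts was 0, and it was 1 with DESeq2, 8 with limma voom with sample quality weights and 0 to 3 with a library left out (3 without KO library 3). Voom gave KO libraries 1, 2 and 3 weights of 0.228, 0.705 and 0.522, and KO libraries 4, 5 and 6 weights of 1.80, 1.53 and 1.12. The count over all genes in crypts was 4014, and it was 7208 with voom, 924 without KO libraries 4, 5 and 6, and 2749 to 5005 with a library left out. In spheroids 0 members were called in all 14 alternatives, while the count over all genes was 37, and it was 154 with no filter, 566 with DESeq2, 71 with the replicate block and 3 to 160 with a library left out. For the interaction 0 members were called in all 24 alternatives, while the count over all genes was 528, and it was 273 with no filter, 110 without crypt KO libraries 4, 5 and 6 and 105 to 1419 with a library left out. The cause of these moves was not tested.

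Fgfr1op in spheroids had a log2 fold change of -0.42 and was called with DESeq2 (-0.42, adjusted p = 0.00622). In crypts it was -0.65, with -0.74 to -0.52 when a library was left out. Spheroid Mmp7, at -0.06, turned to 0.00055 without KO replicate 1, 0.12 without KO replicate 2 and 0.14 without WT replicate 4 (leaving out any replicate gave -0.26 to 0.14). Spheroid Itln1, at -0.13, turned to 0.05 without KO replicate 1 and 0.13 without WT replicate 2 (range -0.53 to 0.13). Across alternatives the crypt members kept a negative log2 fold change, from -0.08 for Mmp7 without KO libraries 4, 5 and 6 to -2.16 for Defa17 with voom.

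Same-numbered samples did not deviate together (r from -0.028 to 0.133 in spheroids and -0.013 to 0.033 in Caco-2), and not every sample correlated best with its own number. These few correlations gave no sign that the numbers pair samples, but they are too few to exclude it. With the replicate block, 0 members were called in spheroids, where 71 of 15915 genes were. In Caco-2 that block gave 1 called member, where 2887 of 18905 genes rose and 3017 fell. In crypts no paired analysis was possible because the crypt columns carry none of the numbers of the labels. Counts of 0 to 52 limit Defa22 in spheroids, and counts of 0 to 4 limit DEFA5, DEFA6 and MMP7 in Caco-2.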
